A study of Homo sapiens with 8 samples.

Results

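The 56 genes described here encode the proteins that license origins of DNA replication, open the double helix and copy DNA at the fork. They were taken by symbol from the deposited table of 61906 genes, each symbol was found once, and all 56 were among the 14478 genes that entered the test, whose mean level was 1 TPM or more. They are the origin recognition complex and its loading factors (9 genes), the MCM2-7 helicase (6), the factors that activate it (11), polymerase alpha-primase (4), polymerase delta (4), polymerase epsilon (4), the sliding clamp with its loader and the enzymes that join Okazaki fragments (8), the single-strand binding protein RPA (3), fork scaffold proteins (3) and proteins that rebuild chromatin behind the fork (4).

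RNAseq was done on U251, an established human glioblastoma cell line listed as WT, after 24 h with either vehicle (DMSO) or 100 nM LLY-283. LLY-283 inhibits PRMT5, a methyltransferase that dimethylates arginine residues symmetrically on proteins, among them splicing proteins. Each group held 4 libraries, which the labels call biological replicates of 1 cell line. How the cultures were kept apart is not stated, so the p-values measure the spread between these 8 libraries.

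Replication is prepared in G1, when the origin recognition complex with CDC6 and CDT1 loads the ring of MCM2-7 onto DNA. Around the start of S phase the CDC7-DBF4 kinase and a set of loading factors add CDC45 and GINS to that ring, which turns it into the moving helicase. Polymerase alpha-primase then lays down primers, polymerases epsilon and delta extend them, and PCNA holds the polymerases on DNA. Many of these genes are transcribed mainly around the G1/S boundary, in part through E2F factors, and actively dividing tumor cells such as glioblastoma lines express them strongly.

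Levels are TPM, the abundance of a gene's transcripts per unit of length as a share of the library, so that levels of different genes can be set side by side. Differences are log2 fold changes of LLY-283 against vehicle on the log2(TPM + 0.1) scale from limma, and a gene was called lower or higher when its Benjamini-Hochberg adjusted p over all 14478 genes was under 0.05. Values after ± are SD over the 4 libraries of a group, SE belongs to the log2 fold change, and 95% intervals are not adjusted for the number of genes. Gene positions are those of GENCODE on GRCh38, with the exons of the canonical transcript. TPM keeps no record of depth, which leaves the sequencing depth unknown and the counting error without an estimate. In RNA from whole cultures, fewer cells in the phase that expresses a gene and less RNA per cell cannot be told apart. The U251 markers VIM, NES, CD44, SOX9 and GFAP were present in all 8 libraries, and the 6 markers of other cells (PTPRC, CD3E, EPCAM, PECAM1, CDH5 and KRT5) together reached 0.05 to 0.48 TPM. LLY-283 replicate 4 stood apart, with 7.19% of its TPM in mitochondrial genes against 10.2 to 11.0% in the other 7 libraries. Correlations between replicates over the genes tested were 0.963 to 0.971 in both groups.

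Promoter sequences are shown first, because they hold sequence motifs, present in some of the genes and absent from the windows of others, that the choice of the genes did not use. RefSeq promoter windows on GRCh38.p14, which run from 250 bases before a gene's start to 50 after it, were found for 48 of the 56 genes. No window was matched for RPA2, DONSON, RECQL4, MCM4, RPA3, MCM5, POLD3 and GINS4. The first set of sequences below holds E2F-type motifs, spelled as TTTCCCGC, TTTCGCGC, TTTGCCGC or TTTGGCGC on either strand and printed in capitals, so that the other strand reads GCGGGAAA, GCGCGAAA, GCGGCAAA or GCGCCAAA. Each sequence is on the strand of its gene, ends at or before the RefSeq start and leaves out annotated exons. The first 4 belong to genes whose transcripts fell with LLY-283, the fifth to MCM6, which was not called, and the last 2 to genes whose transcripts rose.
POLA1 (chrX:24693738-24693872, plus strand): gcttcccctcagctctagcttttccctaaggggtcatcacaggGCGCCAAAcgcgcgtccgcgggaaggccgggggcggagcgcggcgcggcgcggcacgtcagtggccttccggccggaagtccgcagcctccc
PCNA (chr20:5126627-5126802, minus strand): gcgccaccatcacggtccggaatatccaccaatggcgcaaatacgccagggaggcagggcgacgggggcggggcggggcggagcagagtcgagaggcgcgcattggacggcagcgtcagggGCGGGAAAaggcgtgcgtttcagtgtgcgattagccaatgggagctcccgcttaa
CDC7 (chr1:91500949-91501107, plus strand): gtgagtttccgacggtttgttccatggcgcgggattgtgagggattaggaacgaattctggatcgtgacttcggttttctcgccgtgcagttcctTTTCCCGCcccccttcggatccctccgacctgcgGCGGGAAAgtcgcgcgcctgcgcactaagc
TIPIN (chr15:66356686-66356865, minus strand): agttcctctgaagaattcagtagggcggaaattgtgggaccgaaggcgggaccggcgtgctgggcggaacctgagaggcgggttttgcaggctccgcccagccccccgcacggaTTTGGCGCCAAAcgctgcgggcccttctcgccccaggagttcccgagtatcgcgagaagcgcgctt
MCM6 (chr2:135876444-135876623, minus strand): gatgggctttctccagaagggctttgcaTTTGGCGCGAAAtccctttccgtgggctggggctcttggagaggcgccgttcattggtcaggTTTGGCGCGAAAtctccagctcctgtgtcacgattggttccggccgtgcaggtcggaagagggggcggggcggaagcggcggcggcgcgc
MCM3 (chr6:52284882-52284922, minus strand): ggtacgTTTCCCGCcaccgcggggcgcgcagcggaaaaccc
POLE4 (chr2:74958463-74958642, plus strand): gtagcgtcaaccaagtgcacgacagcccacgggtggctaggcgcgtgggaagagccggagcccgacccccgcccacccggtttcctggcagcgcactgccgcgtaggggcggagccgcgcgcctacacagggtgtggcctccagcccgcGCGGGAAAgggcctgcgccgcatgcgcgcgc

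In TIPIN the 2 matches overlap as a palindrome, and in MCM6 4 matches form 2 overlapping pairs. The sequences of PCNA, CDC7 and TIPIN, and that of TICRR below, each belong to 1 of 2 starts listed for the gene. For TIPIN it is the inner start, and the window of the outer start held a CCAAT box but no E2F-type match. The second set shows CCAAT boxes, searched as CCAAT on either strand (ATTGG where it lies on the other strand) and printed in capitals, in 2 genes of lower transcript level without an E2F-type match.
ASF1B (chr19:14136614-14136769, minus strand): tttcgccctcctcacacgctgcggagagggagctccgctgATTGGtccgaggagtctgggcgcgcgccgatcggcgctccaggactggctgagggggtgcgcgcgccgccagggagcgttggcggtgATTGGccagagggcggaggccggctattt
TICRR (chr15:89575289-89575468, plus strand): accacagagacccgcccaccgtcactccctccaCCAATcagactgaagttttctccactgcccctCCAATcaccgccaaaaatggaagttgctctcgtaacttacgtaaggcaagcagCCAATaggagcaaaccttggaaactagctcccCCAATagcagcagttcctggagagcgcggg

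An E2F-type motif was found in the windows of 22 of the 48 genes (45.8%), against 3.99% of all 27305 genes with a window. Counted by window, the share was 23 of 65 (35.4%) against 3.31% of all 35116 windows of the same length. A CCAAT box was found for 29 of the 48 genes (60.4%) against 39.7% of all genes. Among the genes with a window, the E2F-type motif was present in 7 of the 15 called lower, in 2 of the 3 called higher and in 13 of the 30 not called, so that genes of all 3 kinds held it. The CCAAT box was present in 10, 2 and 17 of these genes in turn (66.7%, 66.7% and 56.7%), again in all 3 kinds. A match is a description of the letters and not a binding site, and no protein binding was measured in these samples.

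**Figure D1:**
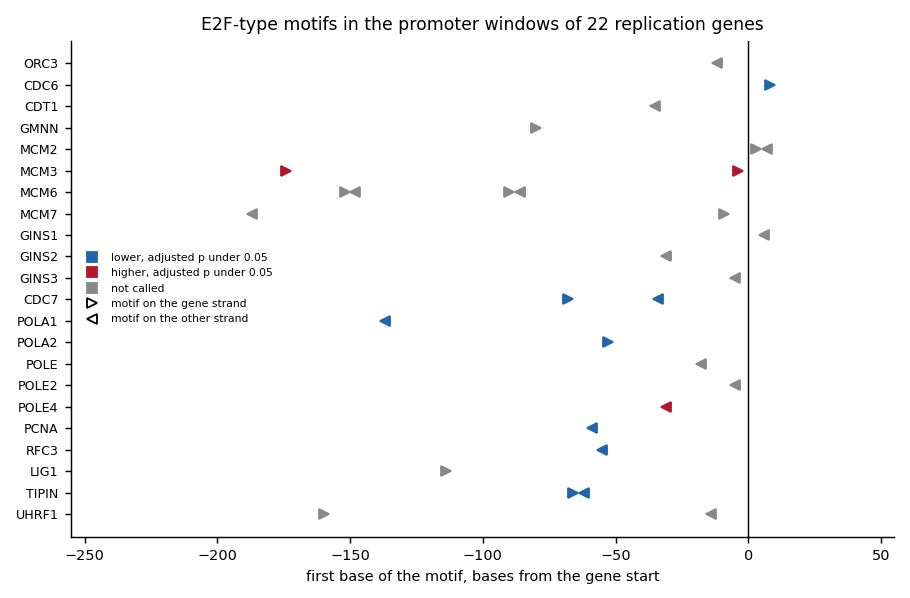
Positions of the E2F-type motifs in the promoter windows of 22 replication genes. The horizontal axis gives the first base of each match in bases from the RefSeq gene start, the triangles point right for the gene's own strand and left for the other strand, and colors give the call after LLY-283; genes called lower, higher and not called all hold matches near the start.

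To determine how LLY-283 altered the replication genes, the 4 treated libraries were compared with the 4 vehicle libraries. Transcripts of 19 of the 56 genes fell (33.9%, against 17.6% of all genes tested) and those of 3 rose (5.36%, against 8.61% of all genes tested). The largest decreases were in GINS4, POLA2, ASF1B and PRIM1, at 67.1 to 77.0% of the vehicle mean, and the 3 increases were in MCM3, POLE4 and ORC4, at 113 to 117% of it. No gene was called with a change of more than 1.5-fold, a size that 3.87% of all genes tested passed in either direction; at an unadjusted p under 0.05, 25 genes were lower (44.6%, against 25.4% of all genes tested) and 5 were higher (8.93%, against 13.2%). The median log2 fold change was -0.09 over the 56 genes and -0.05 over all genes tested. The libraries of the groups did not overlap for 24 of the 56 genes (42.9%), against 29.2% of all genes tested.

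These counts depended on how the libraries were put on 1 scale. With median-of-ratios scaling 13 genes were lower and 5 higher, and with a trend on the GC content and length of the transcripts removed 13 were lower and 11 higher, so that the lower genes made up 86.4%, 72.2% and 54.2% of the calls in turn. With median-of-ratios scaling the genes made up 23.2% lower and 8.93% higher, against 11.8% and 15% of all genes tested, and with the trend removed 23.2% lower and 19.6% higher, against 11.4% and 19.4%, so that the share of higher genes with the trend removed was that of the background. Under those settings the median of the 56 genes was -0.03 and -0.01, and that of all genes tested was 0.01 and 0.03. The median of the replication genes minus that of all genes was -0.04, -0.04 and -0.05 in turn. Removal of the trend also brought all libraries to the same mean log2 level over the genes fitted. How much of the shift came from that centering and how much from the trend itself was not tested. The genes added to the 3 higher ones when the GC content and length trend was removed were ORC3, ORC5, ORC6, GMNN, MCM5, MCM7, GINS3 and POLE3, at 0.10 to 0.20, of which GMNN had been at -0.01. The 12 genes ORC1, CDC6, CDC45, GINS4, TICRR, CDC7, POLA1, POLA2, PRIM1, TIMELESS, CHAF1B and ASF1B were called lower, and MCM3 and POLE4 higher, under the main setting and under all 20 alternatives run.

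**Figure D2:**
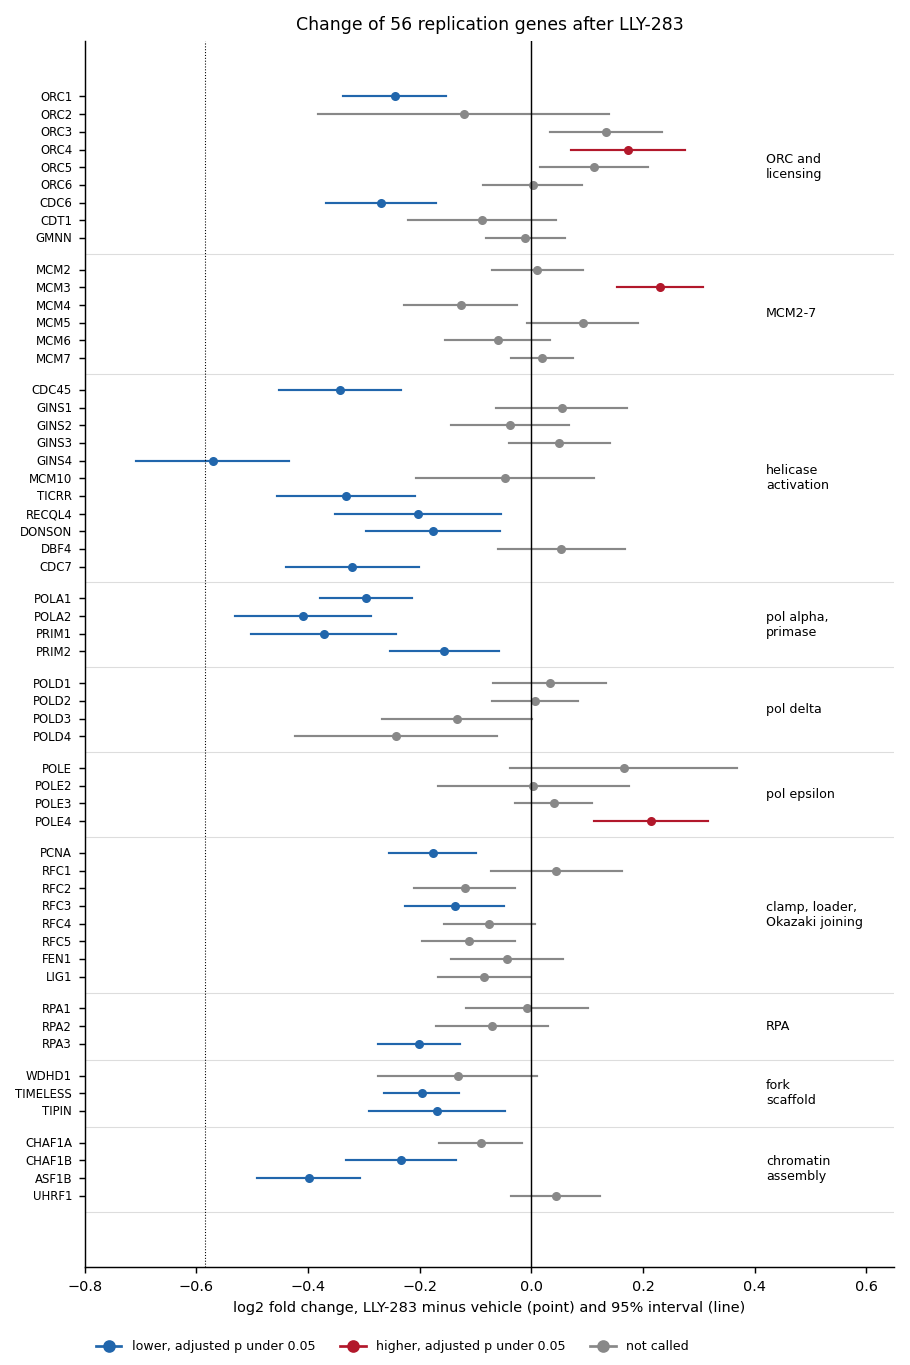
Change of the 56 replication genes after LLY-283. Points give the log2 fold change of 4 LLY-283 against 4 vehicle libraries, horizontal lines its 95% interval, colors the call and the dotted line a 1.5-fold decrease; the genes are grouped by role, and GINS4 lies farthest to the left at -0.57.

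**Figure D3:**
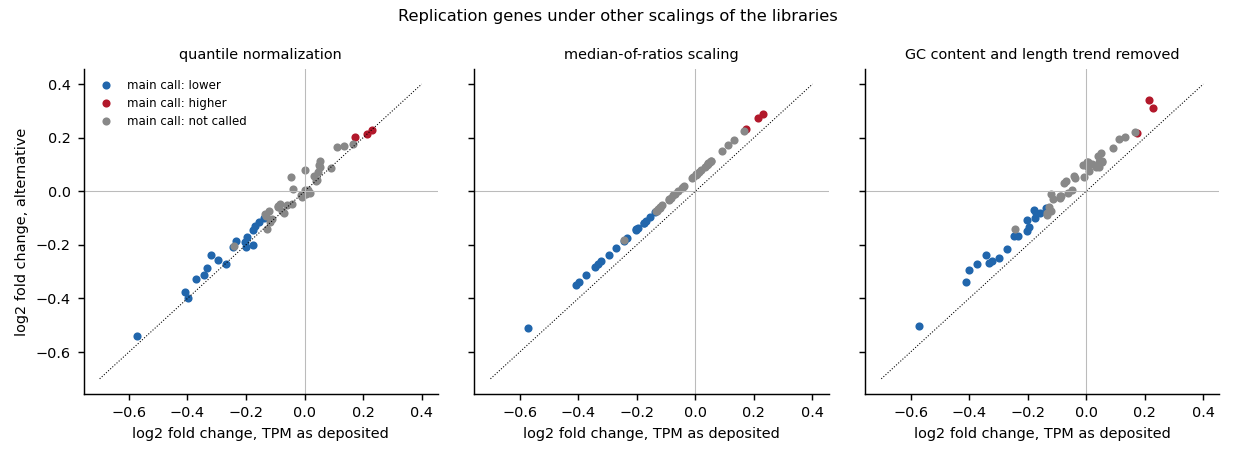
Log2 fold changes of the 56 replication genes under 3 other scalings (vertical axis) against those on TPM as deposited (horizontal axis). Each point is a gene, colored by its call on TPM as deposited, and the dotted line marks equal values; median-of-ratios scaling and removal of the GC content and length trend moved most points up, and no called gene changed sign.

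The counts by role that follow are to be read against the 17.6% of all genes tested that were lower and the 8.61% that were higher, and with 3 to 11 genes in a role a single call moves the share widely. Among the 9 genes that mark origins and load the helicase, ORC1 and CDC6 fell (22.2%) and ORC4 rose (11.1%). The number of lower genes was also 2 under median-of-ratios scaling, quantile normalization and removal of the GC content and length trend, but the number of higher genes was 3 (33.3%, against 15% and 12.9% of all genes) in the first 2 settings and 5 (55.6%, against 19.4%) in the third. ORC1 (ENSG00000085840, chr1:52372829-52404423, minus strand, 17 exons) encodes the largest subunit of the origin recognition complex. It measured 34.9, 32.7, 32.8 and 32.7 TPM in vehicle replicates 1 to 4 and 26.7, 29.3, 28.4 and 27.9 TPM in LLY-283 replicates 1 to 4. All treated libraries lay below all vehicle libraries, and the log2 fold change was -0.25 (0.041 SE, adjusted p = 0.00247). CDC6 (ENSG00000094804, chr17:40287879-40304657, plus strand, 12 exons), an ATPase that works with ORC to load MCM2-7, was among the lower genes. Its level was 78.4, 84.01, 84.03 and 77.1 TPM with vehicle and 62.9, 66.99, 69.5 and 68.9 TPM with LLY-283. The groups were again apart, with a log2 fold change of -0.27 (0.044 SE, adjusted p = 0.00223).

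ORC4, an ATPase subunit of the same complex, moved the other way, from 40.4, 39.9, 35.5 and 39.7 TPM to 43.5, 42.9, 44.95 and 43.8 TPM. Its log2 fold change was 0.17 (0.045 SE, adjusted p = 0.0212), and the call was lost under 3 of the 20 alternatives (0.0518 to 0.0572), among them the setting without LLY-283 replicate 3 (0.16, adjusted p = 0.0572). The remaining 6 genes were not called: ORC2, ORC3, ORC5, ORC6, CDT1, which brings MCM2-7 to the origin, and GMNN, which encodes the CDT1 inhibitor geminin. Their log2 fold changes ran from -0.12 (ORC2) to 0.13 (ORC3). The ORC3 libraries did not overlap (32.4, 29.2, 31.1 and 29.6 TPM against 33.1, 32.6, 35.3 and 33.1 TPM, adjusted p = 0.0542), and the gene was called higher under 6 alternatives, among them quantile normalization, median-of-ratios scaling and removal of the GC content and length trend (0.17 to 0.20, adjusted p = 0.0171, 0.0119 and 0.00852). ORC5 was called higher under 5 alternatives, those 3 among them (0.17 to 0.19, adjusted p = 0.0225, 0.0195 and 0.0125). GMNN differed by -0.01 with a 95% interval of -0.08 to 0.06.

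Within ORC, the summed level of the 6 subunits was 198 ± 5.86 TPM with vehicle and 201 ± 6.60 TPM with LLY-283 (SD, n = 4 each). The part of that sum held by ORC1 went from 16.8% ± 0.344 to 14.01% ± 0.635, and the part held by ORC4 from 19.6% ± 0.988 to 21.8% ± 0.732, without overlap between the groups in either case. These shares are given as a description, since shares of 1 complex are tied to each other.

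Of the MCM2-7 helicase, which unwinds DNA ahead of the fork, MCM3 rose (16.7%) and none of the 6 genes fell, while with the GC content and length trend removed 3 were higher (50%, against 19.4% of all genes). MCM3 (ENSG00000112118, chr6:52264014-52284881, minus strand, 17 exons) measured 107, 106, 107 and 99.4 TPM in the vehicle libraries and 121, 120.5, 122 and 128 TPM in the LLY-283 libraries. Every treated library exceeded every vehicle library, although vehicle replicate 4 was the lowest of its group, and the log2 fold change was 0.23 (0.034 SE, adjusted p = 0.00145, 0.000431 to 0.0118 over the 20 alternatives). MCM7, the subunit with the highest level, measured 195 ± 3.64 TPM with vehicle and 197 ± 2.38 TPM with LLY-283 (SD, n = 4 each), a difference of 0.02 (95% interval -0.04 to 0.07). AP4M1, which overlaps MCM7 on the opposite strand at a mean of 13.0 TPM, fell (-0.42, adjusted p = 0.00322), and whether reads were assigned by strand is not stated.

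MCM4 was lower in every treated library (155, 139, 153 and 136 TPM against 136, 129, 134 and 135 TPM), the closest pair being 136.4 and 136.1 TPM, but was not called (log2 fold change -0.13, adjusted p = 0.0659). It was called under 2 alternatives, quantile normalization (-0.14, adjusted p = 0.0409) and without vehicle replicate 4 (-0.16, adjusted p = 0.037). MCM2, MCM5 and MCM6 differed by 0.01, 0.09 and -0.06. MCM6 was called in 1 setting, without LLY-283 replicate 4 (log2 fold change -0.10, adjusted p = 0.0338).

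The 6 subunits form a ring with 1 copy of each, yet their transcripts differed 3.24-fold in level with vehicle, from MCM6 at 60.02 ± 1.47 TPM to MCM7. Their summed level was 676 ± 12.4 TPM with vehicle and 688 ± 17.3 TPM with LLY-283. MCM3 made up 15.5% ± 0.257 of the sum with vehicle and 17.8% ± 0.173 with LLY-283, and MCM4 21.6% ± 1.11 and 19.4% ± 0.539. MCM6 went from 8.88% ± 0.105 to 8.37% ± 0.246. In these 3 subunits the shares of the groups did not overlap, and in MCM2, MCM5 and MCM7 they did.

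**Figure D4:**
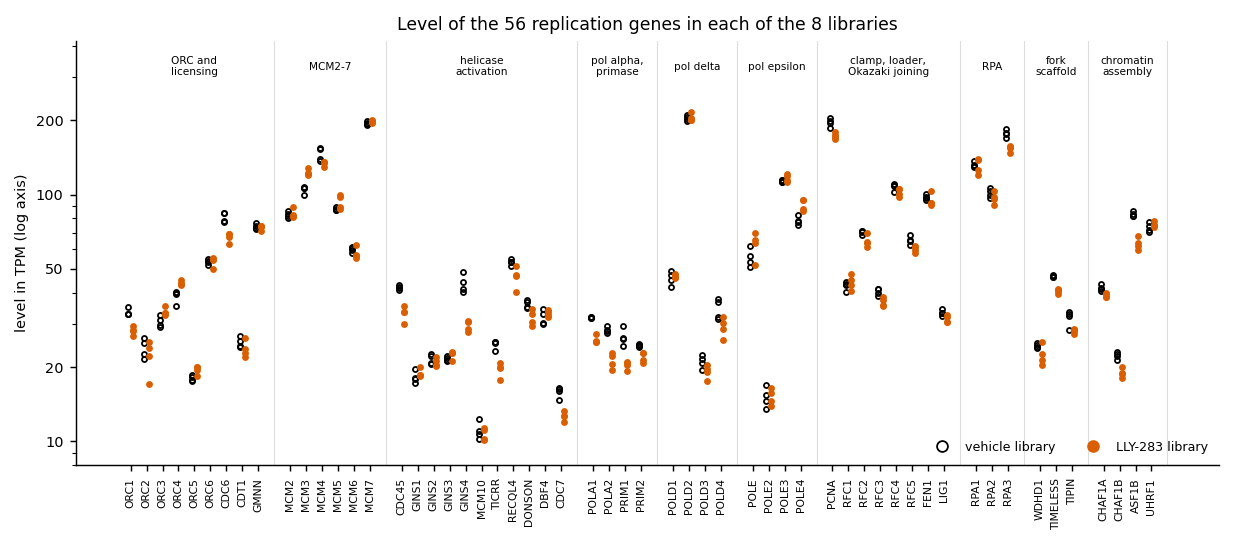
Level of the 56 replication genes in each of the 8 libraries, in TPM on a logarithmic axis. Open circles are vehicle and filled circles LLY-283 libraries, and genes are grouped by role; levels ran from a mean of 10.9 TPM for MCM10 to 204.8 TPM for POLD2, and the members of 1 complex often lay far apart.

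Levels differed far more between genes than between treatments. The means over the 8 libraries ran from 10.9 TPM for MCM10, a factor needed to start the helicase, to 204.8 TPM for POLD2, a small subunit of polymerase delta. The median of the 56 means was 40.9 TPM, against 17.1 TPM for all genes tested, and 53 of the 56 genes lay above that value.

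Among the 11 genes that turn the loaded ring into a working helicase, 6 fell (54.5%, against 17.6% of all genes tested) and none rose; with median-of-ratios scaling or the GC content and length trend removed 4 were lower (36.4%, against 11.8% and 11.4%). GINS4 (ENSG00000147536, chr8:41529218-41545030, plus strand, 8 exons) encodes the SLD5 subunit of the 4-part GINS complex, which joins CDC45 and MCM2-7 in the active helicase. It measured 48.4, 40.4, 44.4 and 41.4 TPM with vehicle and 30.7, 28.4, 27.7 and 30.3 TPM with LLY-283. The highest treated library was well below the lowest vehicle library, and the log2 fold change of -0.57 (0.061 SE, adjusted p = 0.000302) was the largest of the 56. Over the 20 alternatives it ran from -0.50 to -0.61, and it exceeded 1.5-fold without vehicle replicate 2, vehicle replicate 4, LLY-283 replicate 1 or LLY-283 replicate 4.

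The other 3 GINS genes were not called. GINS1 differed by 0.05 (95% interval -0.06 to 0.17), GINS2 by -0.04 (-0.14 to 0.07) and GINS3 by 0.05 (-0.04 to 0.14), and none of these intervals reached the interval of GINS4 (-0.71 to -0.43). GINS4 was the most abundant of the 4 with vehicle (43.6 ± 3.58 TPM, against 18.2 ± 1.08, 21.5 ± 1.00 and 21.6 ± 0.506 TPM for GINS1, GINS2 and GINS3). It held 41.5% ± 2.55 of the summed GINS level with vehicle and 32.01% ± 1.46 with LLY-283, and the levels of the 4 genes were closer together after treatment. Of the GINS genes, GINS3 was called under 1 alternative, the removal of the GC content and length trend (0.14, adjusted p = 0.0208).

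CDC45 (ENSG00000093009, chr22:19479457-19520612, plus strand, 19 exons), the partner of GINS in the helicase, also fell. Its level was 40.9, 42.8, 42.1 and 41.7 TPM with vehicle and 33.6, 30.01, 35.2 and 33.4 TPM with LLY-283, without overlap. The log2 fold change was -0.34 (0.049 SE, adjusted p = 0.00111). TICRR (ENSG00000140534, chr15:89575469-89631056, plus strand, 22 exons) encodes treslin, which helps to bring CDC45 to origins. It went from 23.3, 25.01, 25.3 and 25.3 TPM to 19.9, 20.1, 20.9 and 17.8 TPM, a log2 fold change of -0.33 (0.055 SE, adjusted p = 0.00242). All treated libraries of TICRR lay below the lowest vehicle library.

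CDC7 (ENSG00000097046, chr1:91500851-91525764, plus strand, 12 exons), the kinase that phosphorylates MCM2-7, measured 15.9, 14.7, 16.5 and 16.3 TPM with vehicle and 13.3, 12.7, 12.7 and 12.01 TPM with LLY-283. The groups were apart, with a log2 fold change of -0.32 (0.053 SE, adjusted p = 0.0024). DBF4, its activating subunit, was about 2.00 times as abundant as CDC7 with vehicle and differed by 0.05 (95% interval -0.06 to 0.17). CDC7 therefore went from 33.3% ± 1.22 to 27.8% ± 0.849 of the sum of both transcripts.

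RECQL4 and DONSON, which act when the helicase is assembled at origins, fell by smaller amounts, with calls that depended on the setting. RECQL4, the most abundant of the 11, measured 54.8, 53.5, 53.2 and 51.4 TPM with vehicle and 46.9, 51.5, 47.03 and 40.2 TPM with LLY-283. LLY-283 replicate 2 lay within the vehicle range, and the log2 fold change was -0.20 (0.066 SE, adjusted p = 0.0487). The call was lost under 14 of the 20 alternatives (adjusted p 0.0501 to 0.121), among them the settings without any 1 of the 4 vehicle libraries (0.077 to 0.116), without LLY-283 replicate 1 (0.086) and without LLY-283 replicate 3 (0.0841). DONSON measured 34.9, 37.2, 34.6 and 36.5 TPM with vehicle and 30.4, 32.7, 29.4 and 34.4 TPM with LLY-283, which did not overlap. Its log2 fold change was -0.18 (adjusted p = 0.0374), and the call was lost under 13 alternatives (0.0557 to 0.223), including the loss of any vehicle library (0.0557 to 0.0958) or of LLY-283 replicate 1, 2 or 3 (0.0579 to 0.0933). MCM10 differed by -0.05 (95% interval -0.21 to 0.11).

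All 4 genes of polymerase alpha-primase, the enzyme that makes the RNA-DNA primers on both strands, fell, though PRIM2 did not pass the threshold under every alternative. POLA1 (ENSG00000101868, chrX:24693873-24996986, plus strand, 37 exons), the catalytic polymerase subunit, measured 32.1, 31.5, 31.9 and 31.5 TPM with vehicle and 25.3, 25.3, 25.5 and 27.3 TPM with LLY-283. The vehicle libraries differed by less than 1 TPM, and the log2 fold change was -0.30 (0.037 SE, adjusted p = 0.000575). POLA2 (ENSG00000014138, chr11:65261913-65305959, plus strand, 18 exons), its accessory subunit, went from 27.9, 28.3, 29.2 and 27.5 TPM to 20.6, 22.9, 19.4 and 22.2 TPM. The groups did not overlap, with a log2 fold change of -0.41 (0.054 SE, adjusted p = 0.000811). ENSG00000285816, which overlaps POLA2 on the same strand, was at a mean of 2.79 TPM and not called (-0.10, adjusted p = 0.703).

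PRIM1 (ENSG00000198056, chr12:56730438-56752374, minus strand, 13 exons), the catalytic primase subunit, measured 26.02, 24.3, 29.2 and 26.2 TPM with vehicle and 21.00, 20.7, 20.5 and 19.3 TPM with LLY-283, a log2 fold change of -0.37 (0.058 SE, adjusted p = 0.0018). The highest treated library was below the lowest vehicle library. NACA, an abundant gene that overlaps PRIM1 on the same strand, was at a mean of 1243 ± 47.2 TPM with vehicle and rose (0.12, adjusted p = 0.0418), so the direction of PRIM1 was opposite to that of its neighbor. PRIM2, the regulatory primase subunit, measured 24.2, 24.7, 24.7 and 24.02 TPM with vehicle and 21.3, 20.7, 22.8 and 22.9 TPM with LLY-283. It did not overlap either, but its log2 fold change of -0.16 (0.044 SE, adjusted p = 0.0269) lost its call under 11 alternatives (0.0523 to 0.288). These included quantile normalization, median-of-ratios scaling and removal of the GC content and length trend (0.102, 0.155 and 0.216), the loss of any vehicle library (0.0523 to 0.0647), of LLY-283 replicate 1 (0.0678) and of LLY-283 replicate 2 (0.0664).

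The summed level of the 4 genes was 111 ± 2.84 TPM with vehicle and 89.4 ± 1.66 TPM with LLY-283 (SD, n = 4 each), the lowest treated and vehicle sums being 88.1 and 108.9 TPM and the highest 91.7 and 115.0 TPM. Their levels were close to each other, the most abundant subunit being 1.3 times the least abundant with vehicle. The other 3 genes had larger decreases, and the share of PRIM2 went from 22.04% ± 0.520 to 24.5% ± 1.19. The shares of POLA1, POLA2 and PRIM1 overlapped between the groups.

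None of the 4 genes of polymerase delta, which copies the lagging strand, was called. POLD2, the most abundant of all 56 genes, measured 202, 211, 207 and 198 TPM with vehicle and 199.7, 199.9, 205 and 217 TPM with LLY-283, with a log2 fold change of 0.01 (95% interval -0.07 to 0.08). POLD4, the smallest subunit, showed the largest difference of the 4. Its level was 31.2, 37.8, 36.7 and 32.01 TPM against 28.4, 30.2, 25.8 and 31.9 TPM, the groups overlapped in 1 library each, and the log2 fold change was -0.24 (0.080 SE, adjusted p = 0.0521). It passed the threshold under 5 alternatives (adjusted p 0.0342 to 0.0461), among them the settings without vehicle replicate 1 and without LLY-283 replicate 4. ENSG00000256514, which overlaps POLD4 on the same strand, was at 22.3 ± 2.32 TPM with vehicle and 14.9 ± 2.69 TPM with LLY-283 and fell (-0.60 on the log2 scale, adjusted p = 0.00986), and how reads were divided between the 2 genes was not tested. POLD1, the catalytic subunit, and POLD3 differed by 0.03 and -0.13. The level of POLD2 was 9.71 times that of POLD3 with vehicle, the widest spread within any of the complexes examined.

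Of the 4 genes of polymerase epsilon, which copies the leading strand, 1 rose (25%) and none fell. With the GC content and length trend removed 2 were higher (50%, against 19.4% of all genes tested in that setting). With a replicate block as well, 3 were higher (75%, against 15.8%). POLE4 (ENSG00000115350, chr2:74958643-74970128, plus strand, 4 exons), a small histone-fold subunit, rose from 75.4, 77.4, 78.3 and 82.4 TPM to 95.5, 85.5, 87.7 and 95.2 TPM. Every treated library exceeded every vehicle library, with a log2 fold change of 0.21 (0.045 SE, adjusted p = 0.00818, 0.000727 to 0.0271 over the 20 alternatives). POLE3, its histone-fold partner and the most abundant of the 4, measured 114 ± 1.25 TPM with vehicle and 117 ± 4.06 TPM with LLY-283, a difference of 0.04 (95% interval -0.03 to 0.11). POLE3 was called higher under 2 alternatives, the removal of the GC content and length trend without and with the replicate block. The catalytic subunit POLE measured 56.6, 61.8, 53.3 and 51.1 TPM with vehicle and 63.6, 69.7, 65.5 and 51.9 TPM with LLY-283. LLY-283 replicate 4 was the lowest treated library, and the log2 fold change was 0.16 (adjusted p = 0.21) with it and 0.25 (adjusted p = 0.0236) without it, 1 of 2 alternatives that called the gene. POLE2 differed by 0.0031 (95% interval -0.17 to 0.17). The summed level of the 4 genes was 263 ± 4.76 TPM with vehicle and 286 ± 1.78 TPM with LLY-283.

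Of the 8 genes for the clamp, its loader and the joining of Okazaki fragments, PCNA and RFC3 fell (25%, against 17.6% of all genes tested) and none rose, and none was called with median-of-ratios scaling or the GC content and length trend removed. PCNA, the sliding clamp and the most abundant of the 8, measured 205, 198, 196 and 186 TPM with vehicle and 172, 175, 168 and 179 TPM with LLY-283. The groups did not overlap, with a log2 fold change of -0.18 (0.035 SE, adjusted p = 0.00562). This call was lost under 3 alternatives, among them median-of-ratios scaling (-0.12, adjusted p = 0.0645) and removal of the GC content and length trend (-0.07, adjusted p = 0.273). RFC3, a subunit of the clamp loader, went from 39.9, 38.9, 41.5 and 41.2 TPM to 38.4, 35.6, 37.5 and 35.3 TPM, also without overlap. Its log2 fold change was -0.14 (0.040 SE, adjusted p = 0.0311) and lost its call under 10 alternatives (0.0503 to 0.253), among them the settings without vehicle replicate 1, 3 or 4 (0.056 to 0.0818) and without LLY-283 replicate 2 (0.0794). A long noncoding gene on the same strand, ENSG00000276672, overlaps RFC3 and fell from 1.60 ± 0.0929 to 0.663 ± 0.0922 TPM.

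The other loader subunits RFC1, RFC2, RFC4 and RFC5 differed by 0.04, -0.12, -0.08 and -0.11. RFC5 did not overlap (68.3, 65.6, 62.2 and 64.9 TPM against 58.1, 61.95, 61.5 and 59.7 TPM) and missed the threshold (adjusted p = 0.0516), which it passed under 5 alternatives (0.0331 to 0.04998), among them the setting without vehicle replicate 3. RFC2 passed under 4 (0.00444 to 0.0494), with the smallest p without LLY-283 replicate 4 (log2 fold change -0.16). The flap nuclease FEN1 measured 100.1, 97.8, 94.8 and 96.96 TPM with vehicle and 92.1, 92.00, 90.7 and 104 TPM with LLY-283. LLY-283 replicate 4 was the highest of the 8 libraries, and the log2 fold change was -0.04 (adjusted p = 0.509) with it and -0.09 (adjusted p = 0.0291) without it. FADS2, which overlaps FEN1 on the same strand, fell (-0.28, adjusted p = 0.000755). LIG1, the ligase that seals Okazaki fragments, differed by -0.08 (95% interval -0.17 to -0.0027, adjusted p = 0.119).

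RPA coats the single-stranded DNA that the helicase exposes, and of its 3 genes RPA3, the smallest subunit, fell (1 of 3, or 33.3%). Its level was 178, 170.3, 176 and 184 TPM with vehicle and 157, 155, 156 and 148 TPM with LLY-283. All treated libraries lay below all vehicle libraries, and the log2 fold change was -0.20 (0.033 SE, adjusted p = 0.00218). RPA1 and RPA2 differed by -0.01 (95% interval -0.12 to 0.10) and -0.07 (-0.17 to 0.03). RPA3 was the most abundant of the 3, with 43.1% ± 0.991 of their sum with vehicle and 40.3% ± 1.94 with LLY-283.

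Among the 3 fork scaffold genes, both members of the fork protection complex fell (66.7%), though TIPIN did not pass the threshold under most alternatives. TIMELESS (ENSG00000111602, chr12:56416363-56449426, minus strand, 29 exons) measured 46.3, 46.9, 46.3 and 47.4 TPM with vehicle and 40.8, 41.2, 41.4 and 39.6 TPM with LLY-283. The vehicle libraries spanned a narrow range and lay above all treated libraries, with a log2 fold change of -0.20 (0.030 SE, adjusted p = 0.00154). Its partner TIPIN measured 28.2, 33.4, 32.2 and 32.7 TPM with vehicle and 27.9, 28.6, 27.2 and 28.4 TPM with LLY-283. Vehicle replicate 1 lay within the treated range, and the log2 fold change of -0.17 (0.054 SE, adjusted p = 0.0454) lost its call under 14 alternatives (0.0527 to 0.298), including every setting that left out 1 library other than vehicle replicate 1 (0.0628 to 0.116). The share of TIMELESS in the sum of the pair was 59.7% ± 1.69 with vehicle and 59.3% ± 0.890 with LLY-283, and overlapped between the groups. WDHD1, which links the helicase to polymerase alpha, differed by -0.13 (adjusted p = 0.156), and by -0.19 (adjusted p = 0.0233) without LLY-283 replicate 3.

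Of the 4 genes for chromatin behind the fork, ASF1B and CHAF1B fell (50%, against 17.6% of all genes tested). ASF1B (ENSG00000105011, chr19:14119512-14136613, minus strand, 4 exons), a chaperone that hands new histones H3 and H4 to the assembly machinery, measured 82.04, 85.7, 83.2 and 82.1 TPM with vehicle and 59.6, 61.6, 63.7 and 67.7 TPM with LLY-283. The groups lay far apart, with a log2 fold change of -0.40 (0.041 SE) and the smallest adjusted p of the 56 genes (0.000242). CHAF1B (ENSG00000159259, chr21:36385392-36419015, plus strand, 14 exons), a subunit of the assembly factor CAF-1, went from 22.6, 21.4, 22.2 and 23.1 TPM to 18.8, 18.9, 18.1 and 19.97 TPM. The treated libraries were all lower, at a log2 fold change of -0.23 (0.044 SE, adjusted p = 0.00461), and MORC3, which overlaps the gene on the same strand, was not called (0.06, adjusted p = 0.539). CHAF1A, the large CAF-1 subunit, was lower in every treated library (40.5, 41.8, 43.3 and 41.3 TPM against 39.4, 38.6, 38.6 and 40.02 TPM) but not called (-0.09, adjusted p = 0.0704), and was called without LLY-283 replicate 4 (-0.10, adjusted p = 0.0423). UHRF1, which guides maintenance of DNA methylation, measured 73.5 ± 2.94 TPM with vehicle and 75.7 ± 1.66 TPM with LLY-283, a difference of 0.04 (95% interval -0.04 to 0.12).

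**Figure D5:**
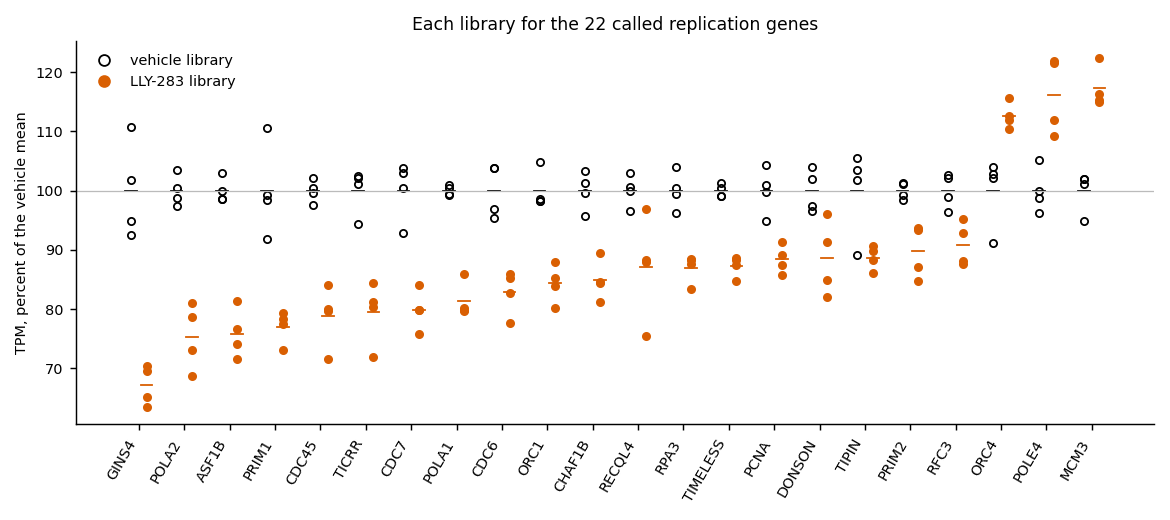
The 22 replication genes called lower or higher, shown for each of the 8 libraries as TPM in percent of the gene's vehicle mean. Open circles are vehicle and filled circles LLY-283 libraries, and short lines are group means; the groups of RECQL4 and TIPIN overlap, and those of the other 20 genes do not.

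Among the genes called lower, 17 of the 19 did not overlap between the groups, and the 3 called higher did not overlap, as was so for 92.2% of all genes called lower and 89.8% of all genes called higher. A further 4 genes without overlap were not called, namely ORC3, MCM4, RFC5 and CHAF1A. Taken per library, the median of the 56 genes against their vehicle means was between -0.10 and -0.08 in each of the 4 LLY-283 libraries and between -0.02 and 0.01 in the vehicle libraries. LLY-283 replicate 4, which stood apart in its mitochondrial share, had -0.08. Without it 23 genes were lower (41.1%) and 4 higher (7.14%), against 18.4% and 10.4% of all genes tested in that setting.

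To place these genes among others of the cell cycle, 3 further lists were read from the same fit, and the differences below are log2 fold changes. Of 40 other replication genes, such as checkpoint adaptors, topoisomerases and histone chaperones of the fork, 7 fell (17.5%) and 4 rose (10%), shares close to the 17.6% and 8.61% of all genes tested, with a median of -0.04 against -0.05. With median-of-ratios scaling 4 were lower (10%, against 11.8% of all genes in that setting) and 9 higher (22.5%, against 15%), and with the GC content and length trend removed 4 (10%, against 11.4%) and 11 (27.5%, against 19.4%). The smallest p-value among the lower genes belonged to MCM8, a helicase of recombination, at -0.33 (adjusted p = 0.000659), and that among the higher genes to RBBP4, a histone-binding subunit of CAF-1 and other complexes, at 0.17 (adjusted p = 0.00481). RBBP4 was therefore higher where its CAF-1 partner CHAF1B was lower.

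Of 25 tested genes for control of the G1/S transition, 11 fell (44%, against 17.6% of all genes tested) and 3 rose (12%, against 8.61%), with a median of -0.13. The number of lower genes was 5 with median-of-ratios scaling (20%, against 11.8% of all genes in that setting), 6 with quantile normalization (24%, against 12.6%) and 6 with the GC content and length trend removed (24%, against 11.4%), so that the shares of the list and of all genes both went down. The number of higher genes stayed at 3 (12%) in these settings, against 15%, 12.9% and 19.4% of all genes in turn, which is below the share of all genes in place of above it. CDKN1A, the inhibitor p21 of cyclin-dependent kinases, measured 13.2, 13.6, 14.5 and 13.7 TPM with vehicle and 8.19, 7.67, 8.21 and 9.02 TPM with LLY-283 (-0.73, adjusted p = 7.95e-05). CCND1, which encodes cyclin D1, rose from 115 ± 5.08 to 132 ± 2.29 TPM (0.20, adjusted p = 0.0037). The other lower genes were E2F1 (-0.35, adjusted p = 0.000139), E2F2, E2F3, E2F5, CCNE2, CDK2, CCNA2, RBL1, RBL2 and CDKN1B. The other higher genes were CCND3 and E2F4.

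Of 25 mitotic genes 7 fell (28%, against 17.6% of all genes tested) and 1 rose (4%, against 8.61%), with a median of -0.07. With the GC content and length trend removed 4 were lower (16%, against 11.4% of all genes in that setting) and 2 higher (8%, against 19.4%), with median-of-ratios scaling 5 (20%, against 11.8%) and 2 (8%, against 15%), and with quantile normalization 9 (36%, against 12.6%) and 1 (4%, against 12.9%). The mitotic kinesin KIF20A fell from 96.98 ± 1.23 to 76.5 ± 2.55 TPM (-0.34, adjusted p = 0.000124), and the spindle checkpoint kinase TTK rose from 28.6 ± 0.876 to 32.3 ± 1.12 TPM (0.17, adjusted p = 0.0113). The lists were not tested against each other.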

How the data were processed

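RNA was extracted from U251 cells after 24 h with vehicle or 100 nM LLY-283 (4 libraries each), poly(A) RNA was captured with oligo-dT beads, and random-primed cDNA was sequenced. According to the methods and the submitters' processing notes, the authors trimmed adapters with Cutadapt 1.18, used STAR to map to the human genome and RSEM with GENCODE annotation to quantify genes. The notes name STAR 2.7.0f and RSEM 1.3.1 on hg38, and the methods name other versions. The values the authors deposited are TPM per gene and library. TPM removes transcript length and depth but not differences in composition, and keeps no record of the read number, so depth and counting error are unknown. Strandedness of the counting is not stated.

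From the TPM, log2(TPM + 0.1) was compared for the 14478 genes whose mean reached 1 TPM with limma 3.58.1 (lmFit, eBayes with a trend; two-sided, without a replicate block) in R 4.3.3, with Benjamini-Hochberg adjustment over all genes. A call was an adjusted p under 0.05, with 1.5-fold as a further threshold. The 20 alternatives were pseudocounts of 0.5 and 1, no filter and a mean of at least 5 TPM, quantile and median-of-ratios scaling, TPM without mitochondrial genes, eBayes without a trend or in robust form, a fit with a replicate block, a fit with the GC content and transcript length trend taken out (natural splines, 4 degrees of freedom each), both of these together, and each of the 8 libraries left out. Taking out the trend also set the mean log2 level of the genes fitted to the same value in every library. Positions came from a later GENCODE release on GRCh38, matched by identifier for 14457 of the genes tested, and promoters from RefSeq.

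The genes and lists were chosen with earlier results of these data known. Named with values are all called genes, the largest difference and the highest level in each role group and, in the other lists, the called gene with the smallest p in each direction; some further genes were picked once their values were known. CCND2 and CDKN1C of the G1/S list were under the filter and not tested.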

Additional observations from a re-analysis of the deposited data

Results flagged for a closer look

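In 11 of the 112 groups of 4 libraries examined (56 genes, 2 groups each), 1 library lay farther from the others than the 95% limit of Dixon's test allows; chance gives about 1 in 20. In the vehicle group, replicate 1 had 34.9 TPM of ORC1 against 32.69 to 32.83 TPM in the other 3 libraries and 23.34 TPM of TICRR against 25.01 to 25.32 TPM. Vehicle replicate 3 had 35.45 TPM of ORC4 against 39.69 to 40.38 TPM, and vehicle replicate 4 had 99.4 TPM of MCM3 against 105.91 to 106.84 TPM. In the LLY-283 group, replicate 2 had 21.23 TPM of GINS3 against 22.71 to 22.93 TPM, and replicate 3 had 35.31 TPM of ORC3 against 32.64 to 33.08 TPM and 19.96 TPM of GINS1 against 18.41 to 18.57 TPM. The remaining 4 were in LLY-283 replicate 4, which had the lowest mitochondrial share: 50.04 TPM of ORC6 against 54.47 to 55.37 TPM, 27.3 TPM of POLA1 against 25.27 to 25.46 TPM, 103.76 TPM of FEN1 against 90.73 to 92.06 TPM and 147.56 TPM of RPA3 against 155.1 to 156.61 TPM. The part of the mitochondrial share in these 4 values was not tested.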

How the results depend on the processing

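Of the values of the 56 genes under the 20 alternatives, 966 kept their direction and their side of the threshold, 69 lost a call, 40 gained one and 45 changed direction; the called genes kept their direction in all 20. Of the 22 called genes 14 kept their call in all 20, and 16 uncalled genes gained one somewhere, besides GMNN, which passed the threshold (adjusted p = 0.0492) in the opposite direction with the GC content and length trend removed. The count of lower replication genes was 12 (21.4%, against 9.48% of all genes tested) with a replicate block and the GC content and length trend removed. With 1 library left out, 15 to 23 were lower (26.8 to 41.1%, against 13 to 18.4% of all genes tested). The count of higher genes was 5 with quantile normalization (8.93%, against 12.9%), 5 with median-of-ratios scaling (8.93%, against 15%), 11 with the GC content and length trend removed (19.6%, against 19.4%) and 7 with that and a replicate block (12.5%, against 15.8%). With 1 library left out, 2 to 4 were higher (3.57 to 7.14%, against 6.13 to 10.4% of all genes tested). The count past 1.5-fold was 0 to 1 with 1 library left out, the 1 gene being GINS4. The median of the replication genes was -0.0660, -0.0273, -0.0137 and -0.0137 under quantile normalization, median-of-ratios scaling and removal of the trend without and with the block. Removal of the trend also centered the libraries on the same mean, and the cause of these shifts was not tested. TPM holds no counts, so a limit set by depth cannot be given.

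Uncalled genes changed direction as follows, in log2 fold changes. With the GC content and length trend removed, without and with the replicate block alike, the values were FEN1 at 0.0575, GINS2 at 0.0482, GMNN at 0.0981, MCM10 at 0.00421, RFC4 at 0.0315, RPA1 at 0.0537 and RPA2 at 0.0384. With median-of-ratios scaling they were FEN1 at 0.0164, GINS2 at 0.0210, GMNN at 0.0488, MCM10 at 0.0121 and RPA1 at 0.0519, and with quantile normalization GINS2 at 0.00860, MCM10 at 0.0543, MCM7 at -0.00740 and POLD2 at -0.00928. Without mitochondrial genes they were ORC6 at -0.00701, POLD2 at -0.00304 and POLE2 at -0.00581. With 1 library left out, the values crossed 0 within the ranges of -0.0138 to 0.0348 for ORC6, -0.0221 to 0.00681 for GMNN, -0.0179 to 0.0276 for MCM2, -0.0860 to 0.00612 for MCM10, -0.00554 to 0.0637 for POLD1, -0.0208 to 0.0215 for POLD2, -0.0476 to 0.0578 for POLE2 and -0.0388 to 0.0318 for RPA1.

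Pairing by replicate number was not detected. Deviations from the group means correlated at -0.041, 0.032, -0.0016 and -0.085 between vehicle and LLY-283 libraries of the same number. Such correlations cannot exclude a paired design with small shared effects. No library correlated best with the library of its own number. With the replicate block 16 genes were lower and 2 higher (28.6% and 3.57%, against 15.2% and 7.56% of all genes tested), and 7 G1/S genes (28%) were lower, the calls of PRIM2 (adjusted p = 0.0551), RFC3 (0.0503), TIPIN (0.0527) and ORC4 (0.0518) being lost. With the block and the GC content and length trend removed together, RPA3 also lost its call (0.0800).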
